A study of Caenorhabditis elegans with 2 samples.

Results

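Cytoplasmic ribosomal protein genes, which encode the protein building blocks of the large and small subunits of the cytosolic ribosome, were examined for binding of the nuclear hormone receptor NHR-10 in Caenorhabditis elegans larvae. Members were the protein-coding genes of Ensembl release 115 on WBcel235 whose names begin with rpl- or rps- and a digit, together with rla-0, rla-1 and rla-2. This gave 81 genes of 19973 protein-coding genes on the nuclear chromosomes, 50 of the large subunit and 31 of the small. The name rule holds rpl-24.2, whose human relative is a ribosome assembly factor, and leaves out ubl-1, ubq-2 and rack-1, which encode ribosomal components under other names.

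Binding was mapped by chromatin immunoprecipitation and sequencing (ChIP-seq) in 1 group with 2 biological replicates. Strain OP239, of genotype unc-119(ed3) III; wgIs239, carried NHR-10 with GFP-FLAG fused at its C terminus. The labels list nhr-10 as the antibody target and do not name the antibody. Whole L2 larvae of both sexes were pooled, so the binding is an average over tissues, and chromatin was sheared by sonication. No untagged or mutant worms were analysed here, and neither was the control library to which the labels point.

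NHR-10 is known for acting with NHR-68 to switch on the propionate shunt, a route of propionate breakdown used when vitamin B12 is scarce. Ribosomal protein genes are among the most highly transcribed genes of growing larvae, and each ribosome takes its proteins in fixed proportions. Many nematode transcripts of this class are trans-spliced to a leader, so that the annotated start of a gene can lie downstream of the place where transcription begins.

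Each deposited region has a summit and a signal value, which is the authors' own and whose scaling between lists was not given. The pooled list, made from both replicates together, held 30000 regions with signals from 6.00 to 218 and a median of 8.38. The replicate 1 list held 22993 regions with a median of 3.12, and the replicate 2 list 30000 regions with a median of 6.86. The thresholded list, which the authors derived by a test of rank agreement (irreproducible discovery rate, IDR), held 491 regions with signals of at least 27.4. A region was given to a gene if its summit lay within 1000 bp of any annotated transcription start site (TSS), and the region of highest signal was taken. By this rule the thresholded list and the 491 highest pooled regions reached the same number of genes, 494. Genes outside the list had signals up to 27.33, just under the lowest in the list, 27.36. Being in the list does not by itself mean that a region ranked high in each replicate, and exceptions are named below. The lists carry no read counts, and library depth is therefore unknown.

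Of the 81 ribosomal protein genes, 71 had a pooled region and 26 had a thresholded one. Over all protein-coding genes 53% had a pooled region and 2.47% a thresholded one, whereas the corresponding shares of the ribosomal protein genes were 87.7% and 32.1%. The 26 genes drew on 24 distinct regions, because rpl-41.1 and rpl-41.2 shared one region and rpl-36 and rps-14 another. These made up 7.08% of the 339 thresholded regions that lay within reach of a protein-coding gene. The 67 distinct pooled regions of members made up 0.479% of the 13975 within reach of one. That total also counts regions that were not the highest of any gene. Among distinct highest regions of genes, members held 24 of 333 thresholded ones and 67 of 9119 pooled ones. The median pooled signal of the 71 genes was 19.2, with quartiles of 12.8 and 36.5, against a median of 9.51 over all genes with a region. Signals among the ribosomal protein genes ran from 6.20 at rpl-38 to 172 at rpl-3, so the family covered most of the range of the list.

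**Figure D1:**
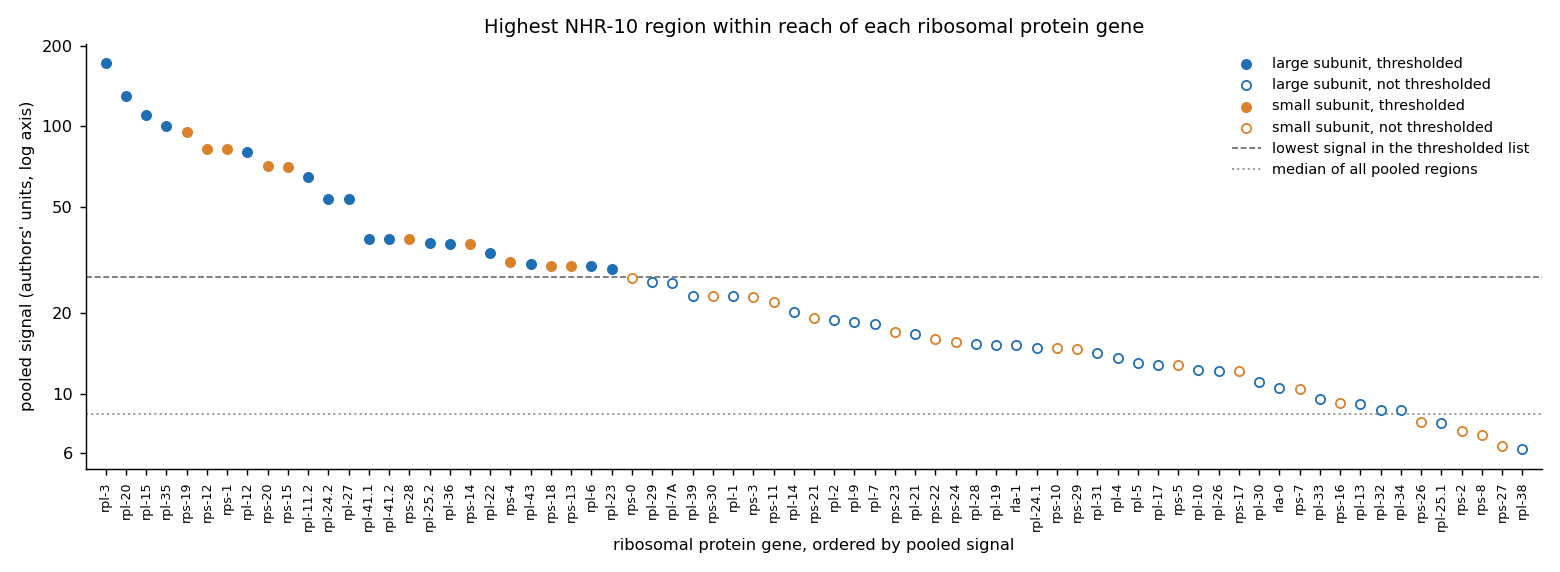
Pooled signal (authors' units, log axis) of the highest region within 1000 bp of each of the 71 ribosomal protein genes with a region, ordered from highest to lowest. Filled points are thresholded genes, open points are not, and colours give the subunit; genes of both subunits are spread along the whole order, and 65 points lie above the median of all pooled regions (dotted line).

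The sequences around the summits show the DNA behind the highest and lowest values of the family. The following lines give the 100 bases on each side of the pooled summit for 5 of the 7 genes of highest signal, from the RefSeq copy of WBcel235 (ce11), 5′ to 3′ on the strand of the gene. Capitals mark the word TACGGT, the word GAGTGT and the word GGTCTC on either strand, which are described further on and were picked after the sequences had been seen. The windows lie at chrIV:4749964-4750164 on the minus strand for rpl-20, chrIV:654846-655046 on the minus strand for rpl-15, chrIII:7854592-7854792 on the plus strand for rpl-35, chrIII:5679008-5679208 on the plus strand for rps-12 and chrIII:4475548-4475748 on the plus strand for rps-1. All 5 summits lie between annotated protein-coding genes, 190 to 442 bp upstream of the nearest TSS of the ribosomal protein gene.
rpl-20: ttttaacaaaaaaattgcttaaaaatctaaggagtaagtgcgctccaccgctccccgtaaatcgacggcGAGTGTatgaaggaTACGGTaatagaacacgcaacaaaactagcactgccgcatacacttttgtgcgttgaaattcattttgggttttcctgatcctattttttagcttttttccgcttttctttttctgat
rpl-15: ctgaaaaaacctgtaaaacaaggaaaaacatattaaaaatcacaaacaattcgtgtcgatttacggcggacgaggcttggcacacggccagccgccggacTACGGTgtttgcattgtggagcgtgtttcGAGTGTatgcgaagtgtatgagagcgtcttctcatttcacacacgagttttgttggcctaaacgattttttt
rpl-35: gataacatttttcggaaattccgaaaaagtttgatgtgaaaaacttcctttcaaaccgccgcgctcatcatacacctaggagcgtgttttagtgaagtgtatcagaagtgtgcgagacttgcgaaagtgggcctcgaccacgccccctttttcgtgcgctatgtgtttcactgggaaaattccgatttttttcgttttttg
rps-12: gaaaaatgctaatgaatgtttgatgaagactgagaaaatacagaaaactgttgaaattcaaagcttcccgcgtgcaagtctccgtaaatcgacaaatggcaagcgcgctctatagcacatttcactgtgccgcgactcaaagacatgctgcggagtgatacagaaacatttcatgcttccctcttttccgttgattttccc
rps-1: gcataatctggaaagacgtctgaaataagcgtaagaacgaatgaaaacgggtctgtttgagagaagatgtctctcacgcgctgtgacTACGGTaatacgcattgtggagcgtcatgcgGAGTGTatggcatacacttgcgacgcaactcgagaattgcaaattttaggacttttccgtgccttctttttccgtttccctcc

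The windows of rpl-20, rpl-15 and rps-1 each hold TACGGT and GAGTGT on the strand of the gene, and those of rpl-35 and rps-12 hold none of the 3 words. The following lines give the windows of the 4 ribosomal protein genes of lowest pooled signal, which cannot be told from background, at chrIV:7926464-7926664 on the minus strand for rps-2, chrIV:7314556-7314756 on the minus strand for rps-8, chrV:104547-104747 on the minus strand for rps-27 and chrV:15511659-15511859 on the plus strand for rpl-38. The summit given to rps-8 lies inside another protein-coding gene, F42C5.9, and the other 3 lie between protein-coding genes.
rps-2: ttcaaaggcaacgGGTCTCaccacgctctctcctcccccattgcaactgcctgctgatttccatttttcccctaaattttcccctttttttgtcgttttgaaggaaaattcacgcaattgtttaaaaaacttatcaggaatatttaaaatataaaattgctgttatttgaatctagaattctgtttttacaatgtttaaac
rps-8: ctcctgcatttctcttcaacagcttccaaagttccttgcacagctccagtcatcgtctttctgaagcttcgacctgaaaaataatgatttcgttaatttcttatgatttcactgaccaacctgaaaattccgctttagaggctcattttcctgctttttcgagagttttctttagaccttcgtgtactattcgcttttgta
rps-27: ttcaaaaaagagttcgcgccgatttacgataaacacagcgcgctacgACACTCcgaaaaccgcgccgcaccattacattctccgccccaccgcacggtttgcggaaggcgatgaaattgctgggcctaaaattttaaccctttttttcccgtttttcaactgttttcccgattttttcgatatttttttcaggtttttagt
rpl-38: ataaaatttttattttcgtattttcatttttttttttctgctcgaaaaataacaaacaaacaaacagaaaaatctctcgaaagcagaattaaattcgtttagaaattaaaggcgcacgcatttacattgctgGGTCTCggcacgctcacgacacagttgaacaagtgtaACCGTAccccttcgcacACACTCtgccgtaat

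The windows of low signal are not free of the same words. That of rpl-38 holds all 3, those of rps-2 and rps-27 hold 1 each, and that of rps-8 holds none.

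Among the large subunit genes, rpl-3 had the strongest region of the family. It encodes a core protein close to the peptidyl transferase centre, and its summit lay 265 bp upstream of the TSS, on chromosome III. Its pooled signal of 172 ranked 3 of 30000, with a signal of 36.2 and rank 11 in replicate 1 and a signal of 135 and rank 5 in replicate 2. Next came rpl-20, with a pooled signal of 130 (rank 19) and replicate signals of 31.6 and 98.6. The region of rpl-15 reached 110 (rank 23), with 25.5 and 85.2 in the replicates. Thus the 3 strongest members stood among the 24 highest regions of every list.

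The region of rpl-35, whose protein sits at the exit of the peptide tunnel, had a pooled signal of 101 (rank 27) and replicate signals of 17.7 and 82.9. That of rpl-12, which encodes a protein of the stalk base, had a pooled signal of 79.9 (rank 49) and replicate signals of 16.6 and 61.6. The region of rpl-11.2, which encodes a partner of the 5S RNA, had a pooled signal of 64.6 (rank 73) and replicate signals of 14.7 and 53.5. All 3 were within the 104 highest regions of each replicate.

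Lower in the thresholded list came rpl-24.2 and rpl-27, at pooled signals of 53.7 and 53.5 (ranks 106 and 107). Replicate 1 gave them 10.4 and 9.60, and replicate 2 gave both 42.7 to 42.8. The remaining thresholded large subunit genes lay between 29.2 and 38.0. They were rpl-41.1 and rpl-41.2 at 38.0, rpl-25.2 at 36.6, rpl-36 at 36.5, rpl-22 at 33.6, rpl-43 at 30.7, rpl-6 at 29.95 and rpl-23 at 29.2. Genes for proteins of the ribosome core, of the tunnel exit and of the stalk base were thus all among the 16.

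Among the small subunit genes, the strongest region belonged to rps-19, with a pooled signal of 95.2 (rank 31) and replicate signals of 19.6 and 72.1. Then came rps-12 and rps-1, both at a pooled signal of 82.4 (ranks 44 and 45). They differed between replicates: rps-1 had the higher signal in replicate 1 (25.8 against 15.4), and rps-12 in replicate 2 (66.2 against 58.2). The order of these neighbours was therefore not the same in both replicates.

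The regions of rps-20 and rps-15 had pooled signals of 71.3 and 70.7 (ranks 59 and 60). In replicate 1 their signals were 19.1 and 11.9, and in replicate 2 they were 56.4 and 51.0. The other 5 thresholded small subunit genes were rps-28 at 37.9, rps-14 at 36.5, rps-4 at 31.1, rps-18 at 30.2 and rps-13 at 30.1. The 5 strongest thus stood well apart from the other 5.

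At the threshold the members formed a continuous series. The lowest thresholded members were rps-13 at 30.1 (rank 401), rpl-6 at 29.95 (rank 406) and rpl-23 at 29.2 (rank 427). Just outside lay rps-0 at 27.1 (rank 502), rpl-29 at 26.2 (rank 534) and rpl-7A at 25.9 (rank 553). The gap between rpl-23 and rps-0 was small beside the range of the family, so the count of 26 depends on where the line is drawn.

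In single lists the family was likewise well represented near the top. When the 491 highest regions of replicate 1 were taken, 16 ribosomal protein genes (19.8%) were within reach, against 2.01% of all genes. With the 491 highest of replicate 2, there were 29 (35.8%), against 2.45% of all genes. Of all members 14 (17.3%) were reached in both replicates, against 1.05% of all genes. Replicate 1 alone reached rpl-6 and rpl-2, and replicate 2 alone reached 15 genes.

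Members were followed from the pooled list into each replicate. A replicate region overlapping the pooled one was found for 48 of 71 genes in replicate 1 and for 69 in replicate 2. An overlapping region can have its summit elsewhere. With a replicate summit within 100 bp of the pooled one required instead, the counts were 35 and 64. Below the threshold they were 14 and 38 of 45. Over the 44 distinct regions found in both, Spearman's rho between replicate signals was 0.76. Among the 22 thresholded ones it was 0.85, and among the 22 below the threshold it was 0.27. The thresholded list was made from these same replicates and, for these genes, amounted to a cut on pooled signal. The values of rho on each side of it are therefore no independent measure of agreement. These points are regions of the same 2 libraries, so the values describe the lists and carry no p-value.

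Thresholded members that were weak in replicate 1 can be named. The region of rpl-41.1 and rpl-41.2 ranked 5338 in replicate 1 and 191 in replicate 2. The region of rpl-22 ranked 9969 and 202, and that of rps-13 ranked 18558 and 375. No replicate 1 region overlapped those of rpl-43 and rpl-23, whose replicate 2 signals were 25.9 and 21.8. Binding at these 5 regions therefore rests mainly on replicate 2.

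**Figure D2:**
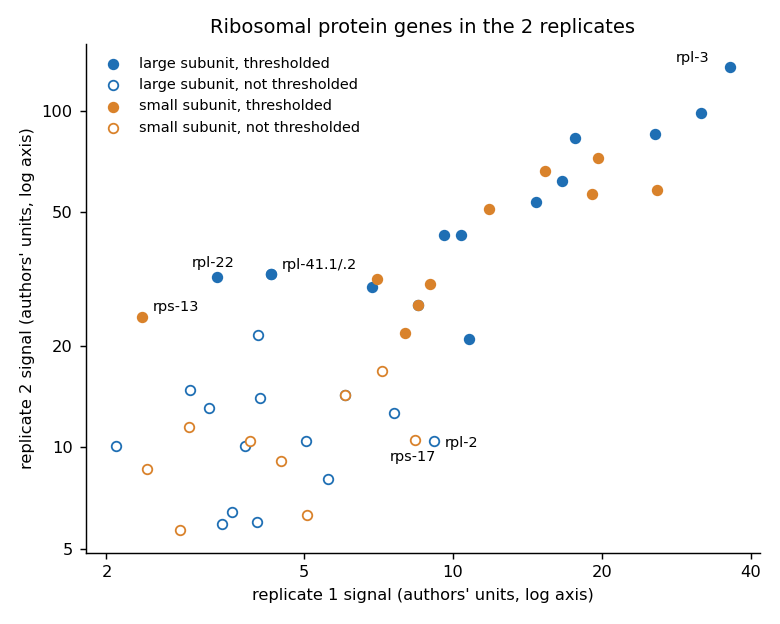
Signal of each ribosomal protein gene's region in replicate 1 (x) and replicate 2 (y), both in the authors' units on log axes, for the 47 genes with an overlapping region in both lists. Filled points are thresholded genes; they rise together up to rpl-3, except that rpl-22, rps-13 and the region of rpl-41.1 and rpl-41.2 are low in replicate 1, and open points show little order.

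The large and small subunits had nearly the same share of thresholded genes. There were 16 of 50 large subunit genes (32.0%) and 10 of 31 small subunit genes (32.3%). Median pooled signals were 18.8 over 43 large and 20.6 over 28 small subunit genes with a region. With the 491 highest regions of replicate 1, the shares were 20% and 19.4%. With those of replicate 2, they were 30% and 45.2%. At this limit a higher share in the small subunit was thus seen in replicate 2 and not in replicate 1. With the 1000 highest regions it was seen in both. The shares of large and small subunit genes were then 24% and 35.5% in replicate 1, and 42% and 51.6% in replicate 2. With the 10000 highest of replicate 1 they were 66% and 64.5%.

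Most summits of the family lay upstream of the gene. The median summit lay 290 bp upstream of the nearest TSS of the gene, with quartiles of 382 and 229 bp upstream. Upstream summits made up 64 of 71 (90.1%), against 60.8% over all genes with a region, whose median summit lay 129 bp upstream. The band from 150 to 450 bp upstream held 47 of 71 members (66.2%) and 23.0% of all genes. Among thresholded genes alone it held 73.1% of members and 43.5% of all genes, and upstream summits made up 92.3% and 90.5%. Ribosome biogenesis genes had 11 of 11 summits upstream, at a median of 305 bp, with 63.6% in the band. An upstream position was thus as common among thresholded genes of any kind and in that list. With protein-coding genes alone considered, the summits lay between genes for 60 members, inside another gene for 9 and inside the gene itself for 2.

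**Figure D3:**
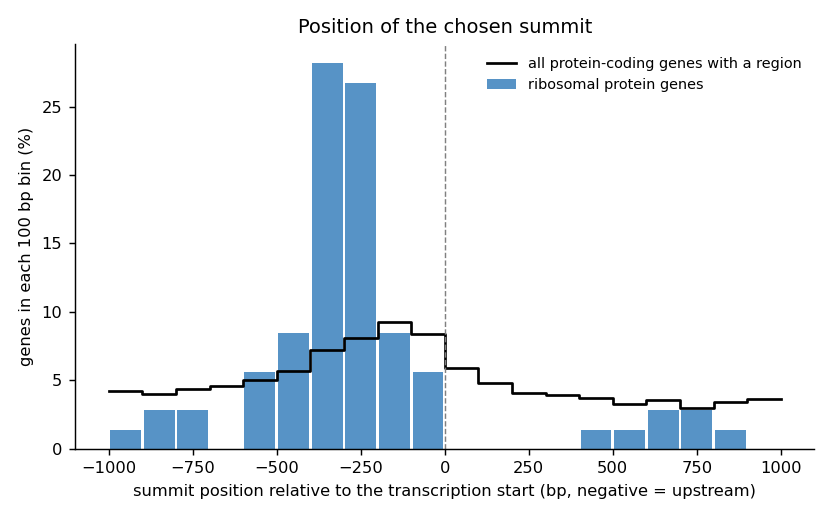
Distance in bp of the chosen summit from the nearest TSS of its gene (negative values are upstream), as the percent of genes in each 100 bp bin. Bars are the 71 ribosomal protein genes and the line is all 10585 protein-coding genes with a region; bars peak between 200 and 400 bp upstream, where the line has no comparable peak.

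A promoter was called shared when the TSS of another protein-coding gene also lay within 1000 bp of the summit, and single otherwise. Ribosomal protein genes lay at shared promoters in 51 of 71 cases (71.8%), against 29.9% of all genes with a region. The share was 62.8% over all thresholded genes, 72.7% over ribosome biogenesis genes and 56.7% over translation factors. At shared promoters 20 of 51 members were thresholded (39.2%, exact 95% Clopper-Pearson interval 25.8 to 53.9), against 9.81% of all genes at shared promoters. At single promoters 6 of 20 were thresholded (30%, interval 11.9 to 54.3), against 2.48% of all genes at single promoters. The intervals cover counting error only, and they overlap widely.

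Median pooled signal was 23.2 at shared and 15.4 at single promoters of members, and 10.5 and 9.15 over all genes. The order of the shares was not stable. In replicate 1 the highest 491 regions reached 21.6% of members at shared promoters and 25% at single ones, whereas in replicate 2 they reached 45.1% and 30%. When only partners on the opposite strand were counted, 15 of 42 (35.7%) were thresholded with such a partner and 11 of 29 (37.9%) without. The direction of the difference between single and shared promoters thus turned with the replicate and with the definition.

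By subunit, 5 of 13 large subunit genes at single promoters were thresholded, namely rpl-3, rpl-35, rpl-11.2, rpl-24.2 and rpl-6. At single promoters of small subunit genes it was 1 of 7, rps-4. At shared promoters the counts were 11 of 30 for the large and 9 of 21 for the small subunit. The regions of rpl-3 and rpl-35, with pooled signals of 172 and 101, had no other protein-coding gene start within reach.

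**Figure D4:**
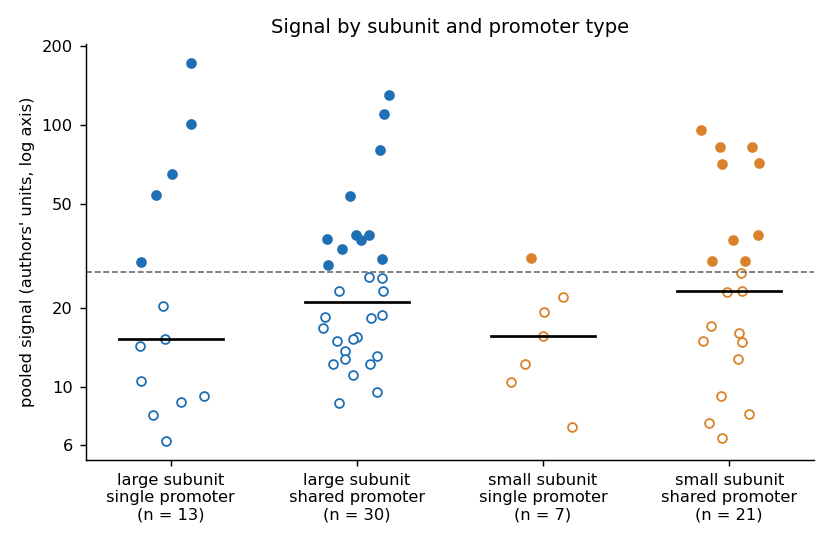
Pooled signal (authors' units, log axis) of the ribosomal protein genes with a region, split by subunit and by single or shared promoter. Each point is a gene, filled if thresholded, black bars are medians and the dashed line is the lowest thresholded signal; the 4 columns overlap over most of their range.

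At shared promoters the region cannot be told to belong to the ribosomal protein gene. Among the 20 thresholded members at shared promoters, the TSS of another gene was nearer to the summit in 11. For rpl-41.1 and rpl-36, both among the 11, the nearer gene was itself a member. These were rpl-41.2, at 246 bp, and rps-14, at 227 bp. Partners of the strongest were Y17G9B.5 for rpl-20, K11H12.8 for rpl-15, hsr-9 for rps-19, ska-3 for rps-12, ifet-1 for rps-1 and lin-54 for rpl-12. The summit lay 176 bp from the TSS of Y17G9B.5 and 286 bp upstream of rpl-20. For rps-19 the distances were 155 bp from hsr-9 and 290 bp from the ribosomal protein gene, and for rps-12 they were 103 bp from ska-3 and 190 bp. By contrast, the summits of rpl-15, rps-1 and rpl-12 were nearer to the ribosomal protein gene. The gene lin-54 encodes the DNA-binding subunit of the DRM complex, ifet-1 a translational repressor and ska-3 a spindle and kinetochore protein.

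Other partners were ekl-4 for rps-20, F36A2.9 for rps-15, Y41D4B.4 for rps-28, C34B7.1 for rpl-25.2 and ndab-2 for rpl-36 and rps-14. The list went on with ify-1 (the worm securin) for rpl-22, Y48B6A.1 for rpl-43, sec-61.A (a subunit of the secretory translocon) for rps-18, nfx-1 for rps-13 and swp-1 for rpl-23. For rpl-27 the summit lay 681 bp downstream of its own TSS and 97 bp from that of egl-30 or C53H9.4. With each region given only to the gene of nearest TSS, 15 of 81 ribosomal protein genes (18.5%) were thresholded, against 1.68% of all genes.

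Pairs of ribosomal protein genes with a common region were few. The bidirectional promoter of rpl-36 and rps-14 had its summit 436 bp upstream of the former and 227 bp upstream of the latter. The pair rpl-39 and rps-30 shared a region of pooled signal 23.3 (rank 720), and rpl-24.1 and rps-10 one of 14.9 (rank 2460), both below the threshold. These pairs each join a large with a small subunit gene. In the tandem pair rpl-41.1 and rpl-41.2 the summit lay 246 bp upstream of rpl-41.2 and 856 bp downstream of the TSS of rpl-41.1.

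Among paralogous genes, rpl-41.1 and rpl-41.2 shared a thresholded region, and 3 other pairs had unequal signals. The 64.6 of rpl-11.2, on the X chromosome, stood against no pooled region within reach of rpl-11.1, on chromosome V and known for a role in the germ line. At rpl-25.2 the pooled signal was 36.6, and at rpl-25.1 it was 7.78 (rank 18057). At rpl-24.2 it was 53.7, against 14.9 at rpl-24.1, which encodes the ribosomal protein proper. In each of these 3 pairs 1 gene was thresholded and the other was not.

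The 10 members with no pooled region within 1000 bp were rla-2, rpl-11.1, rpl-16, rpl-18, rpl-36.A, rpl-37, rpl-42, rps-6, rps-9 and rps-25. Their nearest pooled summit lay 1065 to 2482 bp away. Only rpl-36.A had a region in both replicates, with signals of 4.63 and 7.17. The genes rpl-11.1, rpl-16 and rps-6 had a region in replicate 1 alone, at 2.07 to 2.81, and the other 6 had none in any list. A region missing from a list shows that no enrichment was called there and does not show that the receptor was absent.

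Grouped by function, the groups were small, and their shares are therefore coarse. The thresholded share was 25% for the stalk and for the tunnel exit, beside 32.1% of the family and 2.47% of all genes. Of 3 genes for partners of the 5S RNA, rpl-11.2 was thresholded (33.3%). Of 4 genes of the stalk and its base, rpl-12 was thresholded at 79.9, rla-1 and rla-0 had pooled signals of 15.2 and 10.5, and rla-2 had no region. Of 8 genes of the tunnel exit, rpl-35 and rpl-25.2 were thresholded. Of 3 genes whose proteins surround the entry of the mRNA none was, although rps-3 reached 23.0. Small nucleolar RNAs (snoRNAs), which guide RNA modification, lie inside 13 members, of which 5 (38.5%) were thresholded, against 21 of 68 (30.9%) without one. Over all protein-coding genes that host a snoRNA, 26 of 192 (13.5%) were thresholded.

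By chromosome, the thresholded members were 8 of 25 on I, 2 of 10 on II, 9 of 18 on III, 6 of 18 on IV, none of 8 on V and 1 of 2 on X. On V the highest was the pair rpl-39 and rps-30 at 23.3, and the 491 highest regions reached rpl-2 in replicate 1 and rpl-39 and rps-30 in replicate 2. Over all genes the share was lowest on V (1.32%) and highest on III (4.09%).

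Other genes of the translation machinery were set beside the family, in lists chosen with earlier results of these data known. Among 39 translation factors 8 (20.5%) were thresholded, led by iff-2 at 90.3, eef-2 at 62.8 and eif-3.C at 52.1, and the median pooled signal was 19.5 over 30 with a region. Among 70 mitochondrial ribosomal proteins 3 (4.29%) were, namely mrpl-28 at 44.1, mrps-7 at 36.4 and mrps-21 at 32.2, with a median of 10.7 over 58. Of 13 ribosome biogenesis genes 1 (7.69%) was, namely nol-58 at 30.5, ahead of fib-1 at 25.3 and pro-1 at 24.8. The median pooled signal of this list was 15.8 over 11 with a region. Ubiquitin fusion genes ubq-2 and ubl-1, which each encode a ribosomal protein joined to ubiquitin or a relative of it, were thresholded at 36.3 and 32.7, and rack-1, for a protein on the small subunit, was not, at 9.14. The thresholded share of mitochondrial ribosomal protein genes thus rested on 3 genes, at 4.29% against 2.47% of all genes. That of cytoplasmic ones was several times higher. Below the threshold the mitochondrial list also stood above all genes. The 5000 highest pooled regions reached 32.9% of it and 15.3% of all genes, and 82.9% and 53% had any pooled region.

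Other rank limits were also taken. The 100 highest pooled regions reached 11 ribosomal protein genes (13.6%), against 0.516% of all genes. The 1000 highest reached 34 members (42.0%) and 4.44% of all genes, and the 5000 highest 57 members (70.4%) and 15.3%. With the 10000 highest it was 60 members (74.1%) and 25.21% of all genes.

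**Figure D5:**
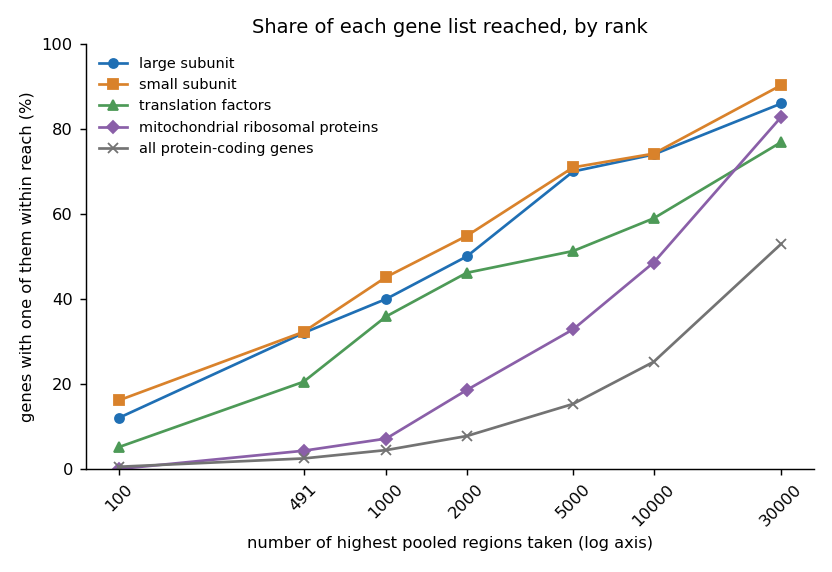
Percent of genes in each list with a region within 1000 bp, by the number of highest pooled regions taken (log axis). Large and small subunit genes (circles and squares) run above translation factors, mitochondrial ribosomal proteins and all protein-coding genes at each of the 7 limits shown.

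Words of 6 letters were counted in the 201 bp around the 67 distinct regions of the family, with each word joined to its reverse complement. Of 2080 words, TACGGT differed most in share from the other regions within reach of a protein-coding gene: 25 of 67 member windows (37.3%) held it, against 5.41% of the others. Among other thresholded regions the share was 14.3%. Within the family it was 45.8% of thresholded windows and 32.6% of those below the threshold. In the windows that held it, the word lay a median of 23 bp from the summit.

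By difference, AAATCG came next, in 47.8% of member windows against 21.6%, and then GAAAAA, in 86.6% against 61.4%. After these came GGTCTC, in 31.3% against 6.14%, GCGAAA, in 37.3% against 13.4%, and GAGTGT, in 29.9% against 7.05%. GAGTGT was in 41.7% of thresholded and 23.3% of other member windows. GGTCTC ran the other way, with 20.8% and 37.2%. Also among the 10 words of largest difference, TTTAGG was in 29.9% of member windows, against 8.74% of other regions and 5.71% of other thresholded regions. These words were picked from the same windows, so the differences are a description and were not tested.

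The words were also counted in a fixed window, which overlaps most of the summit windows that they were picked from. In the 500 bp before the start of the gene record, TACGGT was present in 36 of 81 ribosomal protein genes (44.4%) and in 13.9% of all genes, with 23.7% of other thresholded genes. Of these 36 members, 11 had it on the strand of the gene and 25 on the other strand, so the windows printed above do not stand for the family. Among thresholded members it was 5 and 6. By binding, 11 of 26 thresholded members (42.3%), 20 of 45 below the threshold (44.4%) and 5 of 10 without a region had TACGGT. Mitochondrial ribosomal protein genes had it in 15.7% and translation factors in 20.5%. GGTCTC was also in 36 of 81 members, against 12.9% of all genes and 21.2% of other thresholded genes, with 30.8% of thresholded members and 51.1% of those below the threshold. Neither word was thus more frequent upstream of thresholded members than upstream of the others. GAGTGT was upstream of 42.3% of thresholded members, 26.7% of those below the threshold, 23.3% of other thresholded genes and 15.7% of all genes.

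Another 8 motifs, chosen with earlier results of these data known, were counted on both strands of the same windows. GACGCA was in 37.5% of the 24 thresholded member windows and 17.9% of all 67, against 6.50% of all regions within reach of a gene and 31% of the thresholded ones. GAGAGA was in 25% of the 24 thresholded member windows and 20.9% of the 67, against 14.5% of all such regions and 34.2% of the thresholded ones. The nuclear receptor half-sites AGGTCA and AGTTCA were in 1.49% and 10.4%, against 4.93% and 12.6% of all such regions. CACGTG was in 2.99%, against 4.05%. TATAAA was in 20.9% and TGATAA in 19.4%, against 22.4% and 19.8%, and TTTCAG was in 34.3%, against 35.1%. GC content had a median of 40.8% in member windows and 40.3% in the thresholded member windows. It was 35.3% over all such regions and 43.3% over the thresholded ones. A word in a window is a match of letters and no record of binding to it.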

How the data were processed

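Each deposited region list was in the narrowPeak layout on ce11 and ce10, and the ce11 lists were used. The signal value of each region was set by the authors. Per the deposited notes, a replicate list was derived from the alignment of that replicate with a control, the pooled list from the alignments of both with a control, and the thresholded list from all 3 by IDR. Aligner, region caller and IDR cutoff are not given in the sources used here. The samples form 1 group of 2 replicates. Signals were compared between genes within 1 list. No mean or SD over replicates was computed, and there was no test between groups.

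Gene starts came from Ensembl release 115 (WBcel235, the ce11 assembly), whose chromosomes contain every region, and windows from RefSeq. The window sequence of rpl-3 is not reported here. Genes were given the highest region with a summit within 1000 bp of a TSS. A replicate region matched if it overlapped by 1 bp or more. Assignments were checked on simulated data. Members, lists and motifs were chosen with earlier results of these data known. Genes named in the text are the 15 members of highest signal, all thresholded members, the 3 on each side of the threshold, members without a region, pairs, partners, the 3 highest of each comparison list and ubl-1, ubq-2 and rack-1. Others were named after their values were seen. Python 3.11.15, numpy 2.4.6, pandas 2.3.3 and scipy 1.17.1 were used.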

Additional observations from a re-analysis of the deposited data

How the results depend on the processing

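Thresholded ribosomal protein genes numbered 15 (10 large and 5 small subunit) when each region went to the gene of nearest TSS only, and 16 (10 and 6) with the 245 thresholded regions of highest signal. With the 491 highest regions of 1 replicate in place of the thresholded list, counts ran from 16 without replicate 2 to 29 without replicate 1, from 10 to 15 for the large and from 6 to 14 for the small subunit. The background moved with them: 1.68% of all genes under nearest-TSS assignment, 1.27% under the stricter limit, and 2.01% and 2.45% in the replicates. Median pooled signal was 18.7 within 500 bp, 18.3 within 2000 bp and 15.2 with nearest-TSS assignment. The share at shared promoters was 23.5% under the stricter limit and 21.6% to 45.1% in single replicates. GAGAGA was in 10.4% of windows of 50 bp on each side, and GACGCA in 37.5% of thresholded windows. TACGGT was in 22.4% of the shorter windows, an alternative chosen after seeing the data, against 2.78% of other regions. The causes were not tested. Of 63 alternatives 46 kept the value, which means within 1.5 times for counts, inside the exact 95% interval for shares and exactly equal for the median signal. No paired analysis was possible because the series has only 1 group. With 2 replicates and no read counts, sampling error of a single signal is unknown, and low-ranked regions cannot be told from background.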
